A study of Rattus norvegicus with 15 samples.

Results

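The plasma membrane calcium pumps and the sodium-calcium exchangers carry calcium out of the cell. These 7 genes, Atp2b1, Atp2b2, Atp2b3, Atp2b4, Slc8a1, Slc8a2 and Slc8a3, of 4736 gene symbols on the array, were followed through every probe set that the platform table gives to 1 of them. They came to 19 of the 8799 probe sets, each a group of short probes meant for 1 transcript or for several similar ones. The arrays held total RNA of rat neurons cut out of the substantia nigra pars compacta (SNc, 8 arrays) or of the ventral tegmental area (VTA, 7 arrays) by laser capture microdissection, in a series titled for Parkinson's disease. The labels give no treatment, genotype, strain, age or number of animals and no stain by which neurons were picked, so the spread behind each p-value is that of these arrays and may be technical.

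The pumps, encoded by the Atp2b genes and also called PMCA, use ATP to drive calcium out across the cell membrane with high affinity, and calmodulin stimulates them. The exchangers, encoded by the Slc8a genes and also called NCX, let sodium flow in to move calcium out, with lower affinity and higher capacity, and depend on the sodium gradient that the sodium-potassium ATPase keeps up. Atp2b1 and Atp2b4 are found in most tissues and Atp2b2 and Atp2b3 mainly in neurons. Dopamine neurons of the SNc fire on their own with calcium entering at each cycle, and calcium clearance is one of the costs of that activity.

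Values are the deposited signals, and each difference is that of SNc over VTA in log2(signal + 16), with limma's standard error (SE) and a p adjusted by the Benjamini-Hochberg method over all 5244 probe sets tested. The offset of 16 makes the differences of dim probe sets smaller than they are. Of the 19 probe sets, 14 passed the filter on low values, which removed those with a mean below a signal of about 26.3, and each of the 7 genes kept at least 1. The 5 below it were 1 of Atp2b1, 1 of Atp2b2, 1 of Atp2b4 and 2 of Slc8a1, and their values are given without a test. With 1 intensity per probe set and no detection calls used, a low signal does not show that a transcript was absent. By Affymetrix's naming, probe sets ending in _s_at hold probes shared by several similar transcripts, and the probe sequences were not used here.

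One probe set passed the threshold of 0.05, and it belongs to Atp2b2, the neuronal pump isoform with the fastest kinetics. It was higher in SNc. That is 1 of 14 tested, where 104 of all 5244 probe sets, or 1.98%, passed in either direction, 0.839% toward SNc and 1.14% toward VTA. The other 13 missed the threshold. Of them 3, one probe set each of Atp2b2, Slc8a1 and Slc8a2, had an unadjusted p under 0.05, which 15.4% of all probe sets had. Of the 14, 7 had a positive difference and 7 a negative one, where 43.3% of all probe sets tested had a positive one. Their median difference was 0.015, against -0.04 over all probe sets tested. The arrays of both regions overlapped in each of the 14, where 0.858% of all probe sets had none.

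**Figure D1:**
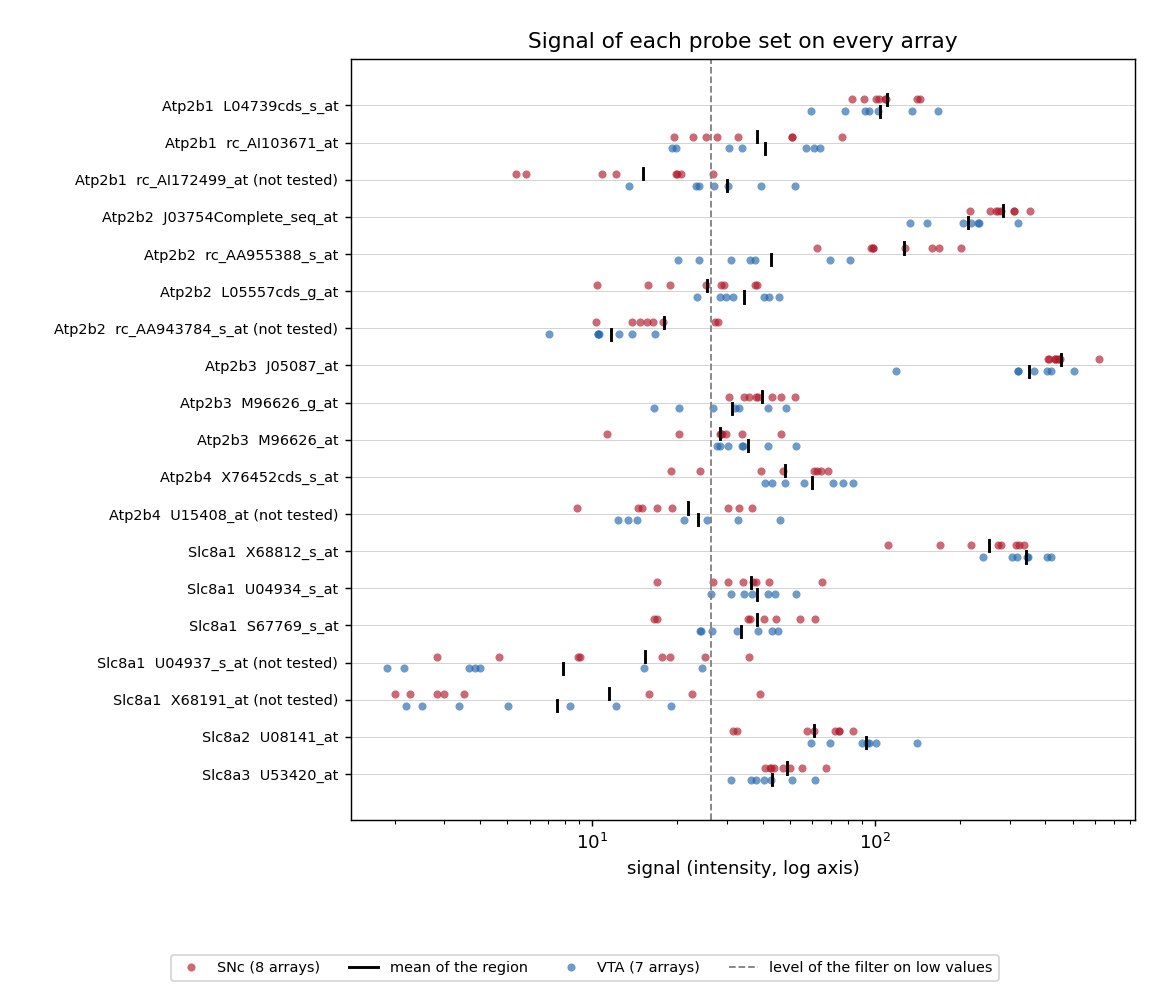
Signal of the 19 probe sets on every array, on a logarithmic axis, with SNc arrays in red, VTA arrays in blue, the mean of each region as a black bar and the filter level of 26.3 as a dashed line. The regions stand farthest apart for rc_AA955388_s_at of Atp2b2, where 7 of 8 SNc arrays lie above every VTA array.

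Captures of both regions carried the defining dopamine neuron genes. Th, tyrosine hydroxylase, had a signal of 6615 ± 527 (SD, n = 8) in SNc and 7193 ± 770 (SD, n = 7) in VTA, and 0 of 7 dopamine markers passed in limma, with 2 at an unadjusted p under 0.05. Signals of oligodendrocyte genes were high too, with the sum of 7 markers from 6183.5 to 10342 in SNc and from 8436.5 to 12748 in VTA, and 0 of 7 passed in limma, with 1 at an unadjusted p under 0.05. The SNc arrays had lower median signals, 41.4 ± 3.04 (SD, n = 8), than the VTA arrays, 45.1 ± 1.73 (SD, n = 7; two-sided exact permutation p = 0.016). SNc 5, SNc 7 and SNc 8 lay nearest to the VTA arrays on the first principal component, while VTA 5 and VTA 8 were least like the rest, with median correlations of 0.91 and 0.919.

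Atp2b2 had 4 probe sets, and they did not give 1 answer. The probe set rc_AA955388_s_at ran from 62.4 to 200.7 in SNc with a median of 113.1, and from 20.0 to 81.4 in VTA with a median of 36.2. The SNc arrays were thus high and the VTA arrays low, except that VTA 3 and VTA 4, at 69.3 and 81.4, reached past SNc 7 at 62.4. On average the signal was 126.5 ± 46.0 in SNc (SD, n = 8) and 42.8 ± 23.4 in VTA (SD, n = 7), a log2 difference of 1.30 (SE 0.24, 95% interval 0.80 to 1.80, limma adjusted p = 0.00513), or 2.46-fold. It ranked 30 of 5244 by p. The call was kept in each of 25 alternatives run, with differences from 0.83 to 1.62 and adjusted p from 0.0023 to 0.0298. The platform table pairs this probe set with Atp2b2 but gives it no accession, and its _s_at ending leaves room for other transcripts.

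The brightest probe set of Atp2b2, J03754Complete_seq_at, ran from 216.3 to 352.7 in SNc with a median of 275.2, and from 132.8 to 320.1 in VTA with a median of 218.2. All 8 SNc arrays lay above the VTA mean of 213.3, and 6 of 7 VTA arrays lay below the SNc mean of 282.7, while VTA 8 was above 7 of the 8 SNc arrays. The log2 difference was 0.41 (SE 0.16, 95% interval 0.07 to 0.76, limma adjusted p = 0.223), so it missed the threshold with an interval on the side of SNc. Without VTA 5 and VTA 8 it was 0.56 (adjusted p = 0.0876).

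The other Atp2b2 probe sets were dim. L05557cds_g_at ran from 10.4 to 38.2 in SNc and from 23.4 to 45.7 in VTA, with 6 of 7 VTA arrays above the SNc mean, and its log2 difference was -0.31 (SE 0.17, 95% interval -0.66 to 0.05, adjusted p = 0.392). It therefore pointed the other way from both brighter probe sets, at signals near the filter level. rc_AA943784_s_at, below the filter, had means of 17.9 in SNc and 11.6 in VTA, with 7 of 8 SNc arrays above the VTA mean.

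**Figure D2:**
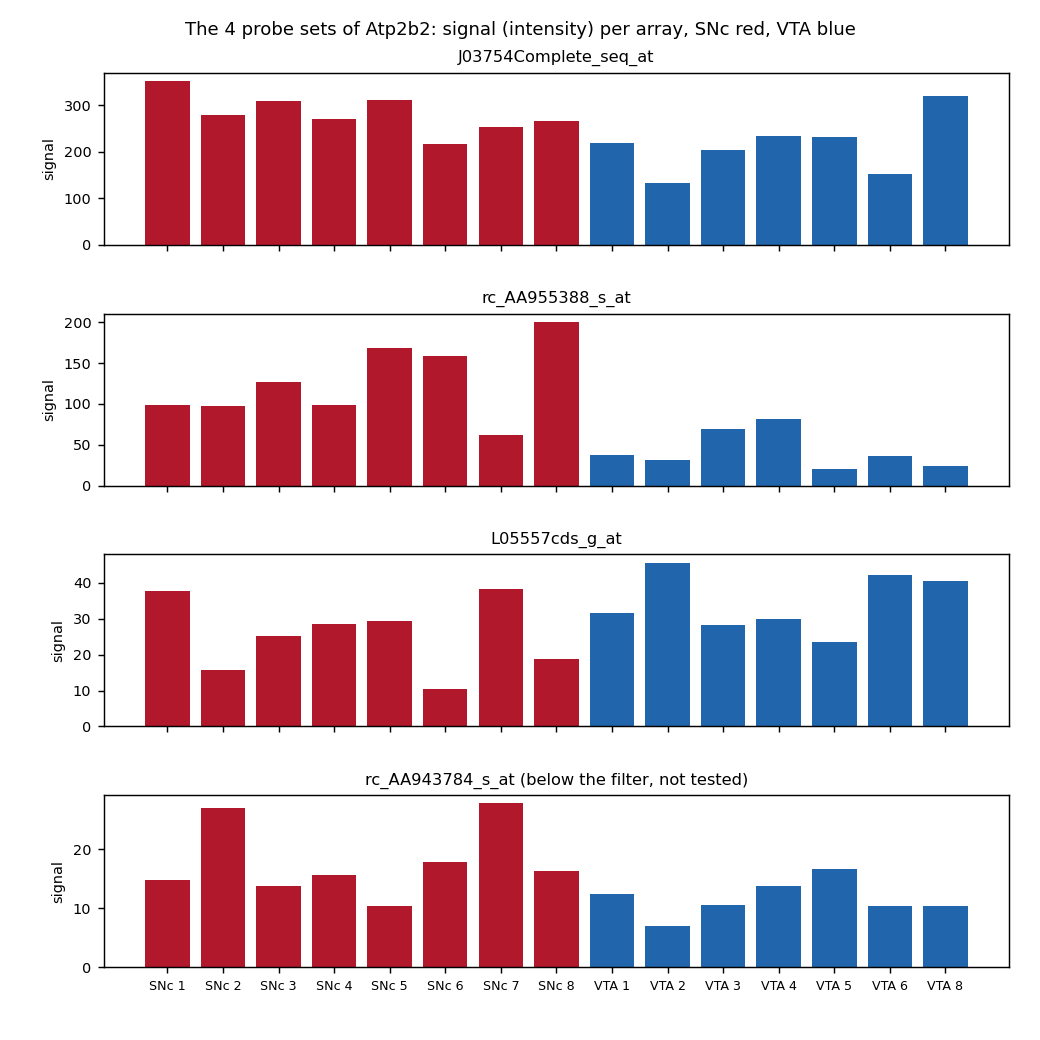
Signal of each of the 4 Atp2b2 probe sets on the 15 arrays, each panel on its own linear axis starting at 0, with SNc bars in red and VTA bars in blue. The red bars are taller in the panel of rc_AA955388_s_at (means 126.5 and 42.8), less so in that of J03754Complete_seq_at (282.7 and 213.3), and not in that of L05557cds_g_at (25.5 and 34.5).

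The disagreement itself was tested on the difference between 2 probe sets of 1 gene within each array, by an exact permutation of the arrays over all 6435 splits, two-sided, with adjustment over the 10 pairs that the 4 genes with several tested probe sets allow. For Atp2b2 all 3 pairs passed, among 5 that passed of the 10. How often probe set pairs of other genes on the array pass was not counted, so such disagreement cannot be called particular to Atp2b2. The region difference of rc_AA955388_s_at exceeded that of L05557cds_g_at by 1.61 on the log2 scale (exact permutation p = 0.00171, adjusted p = 0.0117), with 7 of 8 SNc arrays above every VTA array. That of J03754Complete_seq_at exceeded that of L05557cds_g_at by 0.72 (exact permutation p = 0.00233, adjusted p = 0.0117). These 2 held on leaving out any single array, with adjusted p up to 0.0262. The 2 brighter probe sets also differed, by -0.89 for J03754Complete_seq_at minus rc_AA955388_s_at (exact permutation p = 0.014, adjusted p = 0.0438), but that call was lost on leaving out any of SNc 2, SNc 3, SNc 5, SNc 6, SNc 8, VTA 1, VTA 5, VTA 6 or VTA 8, with adjusted p reaching 0.105. Both point to SNc, and whether they differ in size rests on those arrays.

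Within a region the Atp2b2 probe sets did not follow each other from array to array. After each region's mean was subtracted, the correlation of J03754Complete_seq_at with rc_AA955388_s_at over 15 arrays was r = -0.069 (permutation p = 0.829, adjusted over 10 pairs 0.899) and rho = -0.057 (permutation p = 0.851, adjusted 0.932), and r = 0.0064 without VTA 8 and VTA 2. That of rc_AA955388_s_at with L05557cds_g_at was r = -0.407 (permutation p = 0.14, adjusted 0.457) and rho = -0.346 (permutation p = 0.222, adjusted 0.71), and r = -0.355 without VTA 4 and SNc 8.

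Of the 4 GABA neuron markers tested, Gad1 and Pvalb were higher in SNc beside the Atp2b2 call. Gad1, which makes GABA, was at 753.5 ± 179.9 in SNc and 279.1 ± 123.1 in VTA (log2 difference 1.45, limma adjusted p = 0.00154). Pvalb, parvalbumin, a calcium-binding protein of fast-spiking cells, was at 141.2 ± 47.3 and 53.7 ± 38.0 (1.34, limma adjusted p = 0.0282), a call lost without SNc 3, SNc 4, VTA 2 or VTA 5, without SNc 5, SNc 7 and SNc 8 together, without VTA 5 and VTA 8 together, with an offset of 1, and with no filter. The other GABA markers tested, Gad2 and Slc32a1, had differences of 0.23 and 0.07 and missed the threshold (limma adjusted p = 0.723 and 0.901). The sum of the 4 ran from 908.5 to 1848 in SNc and from 550.9 to 1022 in VTA. Within regions, rc_AA955388_s_at and Gad1 correlated with r = 0.281 (permutation p = 0.343, adjusted over 2 relations 0.343; r = 0.205 without VTA 4 and SNc 8) and rho = 0.261 (permutation p = 0.375, adjusted 0.664), over 15 arrays. With Pvalb the values were r = 0.318 (permutation p = 0.294, adjusted 0.343; r = 0.291 without the same arrays) and rho = 0.129 (permutation p = 0.664). These relations were chosen after the values were seen, and the part of GABA neurons in the Atp2b2 result was not tested. In such captures more cells of a type and more RNA per cell cannot be told apart.

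Atp2b3, the pump isoform most restricted to brain, had 3 tested probe sets and no call. The bright one, J05087_at, ran from 410.2 to 620.5 in SNc with a median of 437.5, and from 118.4 to 505.4 in VTA with a median of 364.1. All 8 SNc arrays lay above the VTA mean of 350.3, and 5 of 7 VTA arrays lay below the lowest SNc array. VTA 5 was far below the others at 118.4, and SNc 5 far above at 620.5. The log2 difference was 0.45 (SE 0.22, 95% interval -0.0043 to 0.91, limma adjusted p = 0.329), 0.23 without VTA 5 (adjusted p = 0.464) and 0.18 without VTA 5 and VTA 8 (adjusted p = 0.607).

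Its dim probe sets are built on 1 accession and differed in sign. M96626_g_at had means of 39.8 ± 7.03 in SNc and 31.3 ± 11.3 in VTA, a difference of 0.27 (SE 0.15, adjusted p = 0.425), which was 0.15 without SNc 5, SNc 7 and SNc 8 and 0.10 without VTA 5 and VTA 8 (adjusted p = 0.651 and 0.796). M96626_at had 28.4 ± 10.1 and 35.5 ± 8.88, a difference of -0.23 (SE 0.16, adjusted p = 0.538). The disagreement of M96626_at with J05087_at was 0.68 (exact permutation p = 0.0219) and with M96626_g_at 0.50 (exact permutation p = 0.0186), each with an adjusted p of 0.0438. Neither held without any of SNc 2, SNc 3, SNc 5, SNc 6, SNc 8, VTA 1, VTA 5, VTA 6 or VTA 8, with adjusted p reaching 0.111. The first was also lost without SNc 1, SNc 4 or VTA 2, and the second without VTA 3. J05087_at and M96626_g_at, which both leaned to SNc, correlated within regions with r = 0.596 (permutation p = 0.0573, adjusted over 10 pairs 0.457) and rho = 0.471 (permutation p = 0.0705, adjusted 0.499), and with r = 0.361 without VTA 5 and VTA 4, so much of r rests on those arrays.

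The widely expressed pumps gave no call. Atp2b1, described as the housekeeping isoform, ran from 82.6 to 143.8 in SNc with a median of 105.6 and from 59.3 to 166.7 in VTA with a median of 95.4 by L04739cds_s_at. The VTA arrays spread on both sides of the SNc arrays. The difference was 0.10 (SE 0.18, 95% interval -0.26 to 0.47, adjusted p = 0.83). The dimmer rc_AI103671_at gave -0.06 (SE 0.23, adjusted p = 0.93), and -0.29 without SNc 5, SNc 7 and SNc 8 (adjusted p = 0.52). Its sign turned under quantile normalization, median centring and without any of SNc 6, VTA 3, VTA 6 or VTA 8. The dimmest, rc_AI172499_at, below the filter, had means of 15.2 in SNc and 29.9 in VTA and lay above the SNc mean in 6 of 7 VTA arrays. Atp2b4, an isoform of smooth muscle, red cells and sperm as well as brain, was at 48.2 ± 19.1 in SNc and 59.9 ± 17.2 in VTA by X76452cds_s_at (difference -0.28, SE 0.21, 95% interval -0.71 to 0.15, adjusted p = 0.561). Its second probe set, U15408_at, was below the filter with means of 21.8 and 23.6.

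Of the exchangers, Slc8a2, the isoform of brain, had the smallest p. Its 1 probe set, U08141_at, ran from 31.5 to 83.6 in SNc with a median of 66.4, and from 59.2 to 141.2 in VTA with a median of 93.9. No SNc array reached the VTA mean of 92.9, and 6 of 7 VTA arrays lay above the SNc mean of 60.9. The log2 difference was -0.51 (SE 0.19, 95% interval -0.92 to -0.11, limma adjusted p = 0.193), or 1.43-fold toward VTA. It missed the threshold in all 25 alternatives run, with differences from -0.63 to -0.33.

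Slc8a1, the exchanger best known from the heart and also abundant in brain, had 5 probe sets. The bright one, X68812_s_at, ran from 110.9 to 337.6 in SNc with a median of 275.4, and from 240.0 to 419.6 in VTA with a median of 345.6. No SNc array reached the VTA mean of 340.4. The low end of SNc was made by SNc 5, SNc 7 and SNc 8, at 110.9, 170.1 and 217.6, below every VTA array, while the other 5 lay from 273.1 to 337.6. The difference was -0.46 (SE 0.20, 95% interval -0.88 to -0.03, limma adjusted p = 0.286) and -0.13 (SE 0.15, adjusted p = 0.655) without those 3 arrays. So the lean of Slc8a1 toward VTA came mostly from the 3 SNc arrays that lay nearest to VTA on the first principal component.

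Both dim Slc8a1 probe sets that were tested missed the threshold. U04934_s_at gave -0.08 (SE 0.17, adjusted p = 0.87) and S67769_s_at gave 0.09 (SE 0.19, adjusted p = 0.866), at means between 33.5 and 38.2. The sign of the first turned under quantile normalization, median centring and without SNc 1, and that of the second without the 3 SNc arrays or without VTA 5 and VTA 8. None of the 3 pairs of Slc8a1 probe sets passed the test of disagreement (exact permutation p from 0.156 to 0.527, adjusted p from 0.26 to 0.586). U04937_s_at and X68191_at, below the filter, had means of 15.3 and 11.4 in SNc and 7.90 and 7.50 in VTA, with untested differences of 0.38 and 0.13. Slc8a3, the exchanger of brain and skeletal muscle, was at 48.7 ± 8.80 in SNc and 43.1 ± 10.2 in VTA by U53420_at (difference 0.14, SE 0.14, 95% interval -0.15 to 0.42, adjusted p = 0.668).

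**Figure D3:**
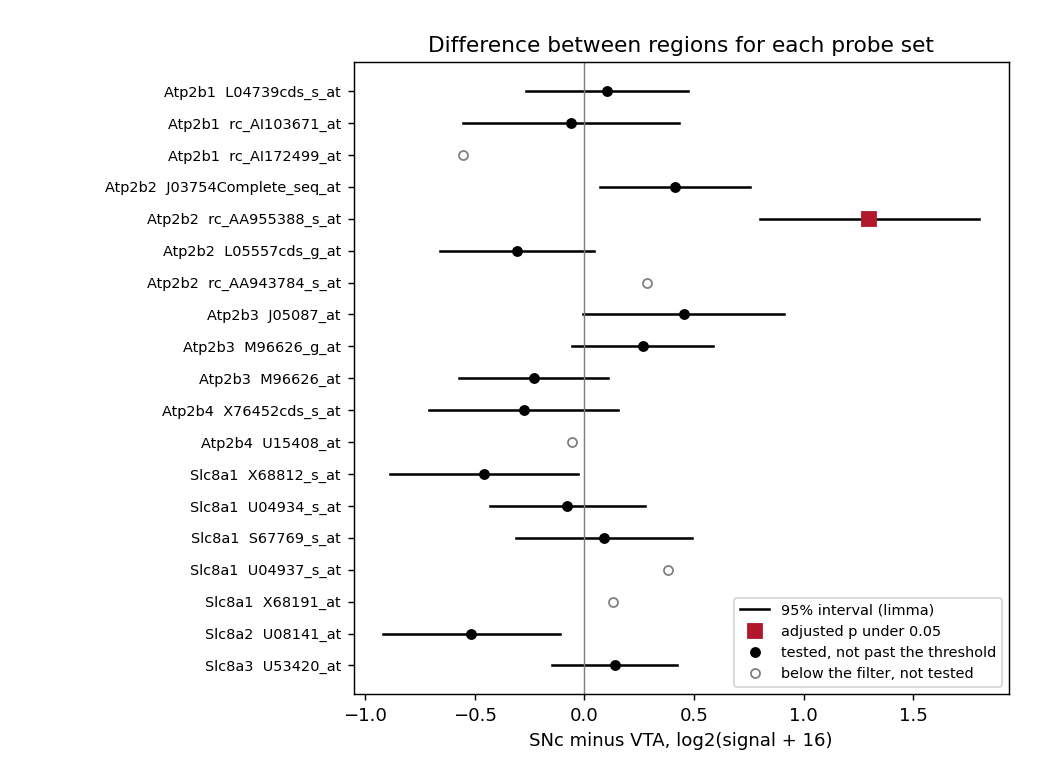
Log2 difference between regions (SNc minus VTA, on the log2(signal + 16) scale) for the 19 probe sets, with limma's 95% interval for the 14 tested. Only rc_AA955388_s_at of Atp2b2, drawn as a red square at 1.30, passed; open circles are the 5 probe sets below the filter, drawn without an interval.

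Because a difference between members needs its own test, the genes were also set against each other within arrays, each by its brightest probe set. The difference between 2 genes on 1 array has no meaning as a ratio of transcripts, but a shift of it between regions shows that the 2 probe sets used changed unequally. Probe sets of 1 gene gave such shifts too, of 1.61 and 0.72 in Atp2b2, so a shift need not be one between genes. The dimmer probe sets of Atp2b2 and Atp2b3 that pointed to VTA were not put to this test. Of 21 pairs of the 7 genes, 6 passed an exact permutation test adjusted over the 21, and 9 had an unadjusted p under 0.05. Of these 6, 4 set a neuronal pump against Slc8a1 or Slc8a2, and 2 set Slc8a3 against the other exchangers. The pairs share genes and arrays and are not independent. How often pairs of other genes pass this test was not counted, so the 6 and the 9 cannot be called particular to these members.

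Atp2b3 minus Slc8a2 ran from 2.18 to 3.74 in SNc and from 0.84 to 2.15 in VTA, so all 8 SNc arrays lay above all 7 VTA arrays. The means differed by 0.97 (exact permutation p = 0.000311, where these splits can give 0.000155 at the least, adjusted p = 0.00653). Atp2b3 minus Slc8a1 ran from 0.37 to 2.33 in SNc and from -0.93 to 0.33 in VTA, again with no overlap, and the means differed by 0.91 (exact permutation p = 0.000622, adjusted p = 0.00653). Of all pairs of the 3221 genes tested, 0.831% were separated in this way, against 2 of the 21 pairs here. Atp2b2 minus Slc8a2 differed by 0.93 (exact permutation p = 0.00171, adjusted p = 0.012) and Atp2b2 minus Slc8a1 by 0.87 (exact permutation p = 0.0042, adjusted p = 0.0176), each with all 8 SNc arrays above the VTA mean.

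Among the exchangers, Slc8a2 minus Slc8a3 was lower in SNc by a difference of -0.65 (exact permutation p = 0.00404, adjusted p = 0.0176) and Slc8a1 minus Slc8a3 by -0.59 (exact permutation p = 0.0141, adjusted p = 0.0495), in all 8 SNc arrays against the VTA mean. The last call did not survive the loss of SNc 1, SNc 4, SNc 5, SNc 7, SNc 8, VTA 1, VTA 2, VTA 3, VTA 4, VTA 6 or VTA 8, where the adjusted p went up to 0.119. Between Slc8a1 and Slc8a2 the shift was 0.06 (exact permutation p = 0.789), and between Atp2b2 and Atp2b3 it was -0.04 (exact permutation p = 0.905). These p-values do not show that the members of either pair moved alike. Atp2b1 against Slc8a2 and Slc8a1 gave 0.62 and 0.56 (exact permutation p = 0.0496 and 0.0577, adjusted p = 0.116 and 0.121).

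Without SNc 5, SNc 7 and SNc 8, 0 of the 21 pairs passed by the exact permutation test and 5 had an unadjusted p under 0.05. The shift was then 0.89 for Atp2b3 minus Slc8a2, 0.53 for Atp2b3 minus Slc8a1, 0.91 for Atp2b2 minus Slc8a2 and 0.56 for Atp2b2 minus Slc8a1 (exact permutation, adjusted p = 0.053, 0.053, 0.053 and 0.159). The shifts with Slc8a2 thus stayed close to those of all arrays, and those with Slc8a1 were smaller. Without VTA 5 and VTA 8, 8 pairs passed.

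**Figure D4:**
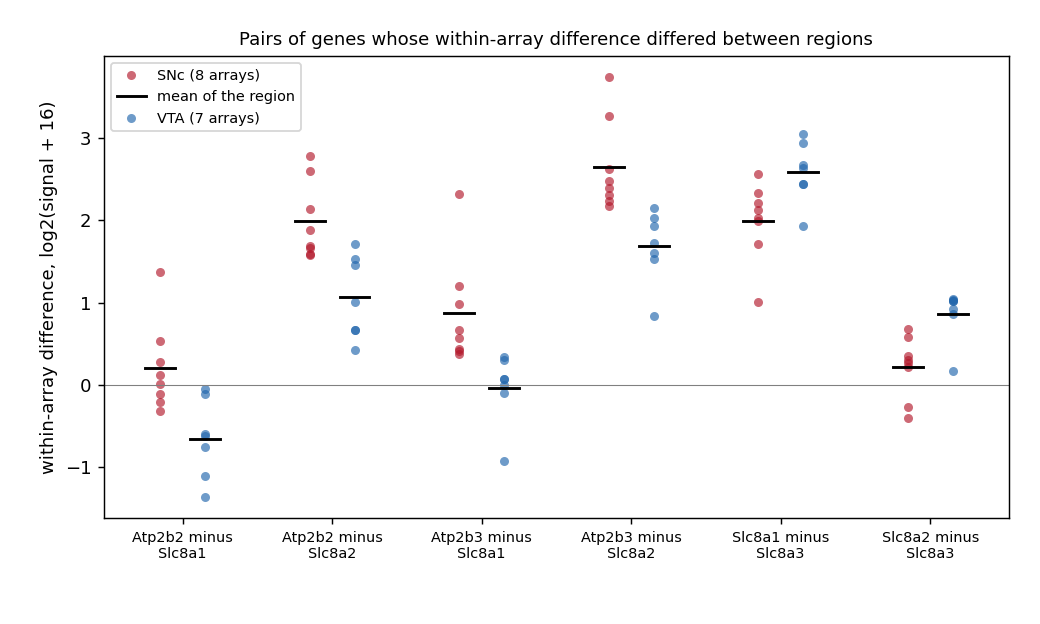
Within-array difference on the log2(signal + 16) scale for the 6 pairs of genes that passed, one point per array, SNc in red and VTA in blue, with the mean of each region as a bar. The SNc points lie above all VTA points for Atp2b3 minus Slc8a1 and Atp2b3 minus Slc8a2, and lower on average for the pairs with Slc8a3.

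Around the pumps and exchangers, a list of 58 genes of calcium clearance had 36 on the array and 28 tested. Of these, 2 passed with higher signal in SNc, Atp2a2 and Pvalb, and 1 with higher signal in VTA, Calb1, where 2.17% of the 3221 genes passed. The median difference of the list was -0.06, against -0.04 for all genes. The gene names and their grouping were chosen with earlier results of these data known.

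Of 16 other calcium pumps and exchangers listed, 4 were tested. All 4 differences were on the side of SNc, where 1429 of all 3221 genes were. Atp2c1 and Slc24a2 missed the threshold (limma adjusted p = 0.449 and 0.4). Atp2a2, the main pump into the endoplasmic reticulum, was at 2569 ± 317 in SNc and 1751 ± 415 in VTA (0.57, SE 0.14, limma adjusted p = 0.0478), by 1 of its 4 probe sets. Atp2a3, another pump of that membrane, was at 366.6 ± 93.7 and 211.5 ± 110.1 (0.85, SE 0.25, adjusted p = 0.0815). The call of Atp2a2 was not kept after quantile normalization, with an offset of 1, without VTA 5 and VTA 8, or without any 1 of 13 arrays, all but SNc 5 and VTA 4. Atp2a3 passed without VTA 8 and without VTA 5 and VTA 8. Calb2, calretinin, named after its values were seen, was at 1362 ± 497 in SNc and 861.0 ± 243.6 in VTA (0.61, SE 0.22, limma adjusted p = 0.162). It missed the threshold on all arrays and passed without SNc 5, SNc 7 and SNc 8. Of the cytosolic buffers 9 were tested. Calb1, calbindin, was at 1248 ± 273 in SNc and 2440 ± 530 in VTA (-0.96, SE 0.17, adjusted p = 0.00302), and Pvalb went the other way as given above.

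The genes that bear on the members directly gave no call. Of 11 pump subunits and regulators tested, 0 passed in limma and 1, Capn2, had an unadjusted p under 0.05. Capn2, a calpain protease, a family that can cleave the pumps, was at 328.4 ± 53.3 in SNc and 256.7 ± 47.0 in VTA (0.34, SE 0.14, adjusted p = 0.237). Bsg, basigin, which pairs with the pumps as a subunit, was at 1057 ± 186 and 903.3 ± 87.9 (0.21, SE 0.13, adjusted p = 0.464). Of the genes of the sodium gradient on which the exchangers run, 4 were tested and 0 passed in limma, with 0 at an unadjusted p under 0.05. Atp1b1, a beta subunit of the sodium-potassium ATPase, differed by 0.28 (SE 0.18, adjusted p = 0.477) and Atp1b2, another, by -0.31 (SE 0.16, adjusted p = 0.347).

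For each member the genes that followed it most closely within regions were sought among 3214 genes, by Pearson's r over the 15 arrays after each region's mean was subtracted. These are the highest of many values and carry no test. Each member was taken by its brightest probe set. Slc8a2 was followed by Arl6ip4 (r = 0.855, rho = 0.721) and Wipf3 (r = 0.812, rho = 0.857), and r stayed at 0.784 and 0.654 without SNc 5 and SNc 2. Slc8a1 was followed by Asnsd1 (r = 0.850) and Fbxo2 (r = 0.844), with 0.753 and 0.763 without SNc 5 and SNc 7. Fbxo2, a ubiquitin ligase subunit of neurons, was itself higher in SNc (0.83, limma adjusted p = 0.0321), the side opposite to the lean of Slc8a1. Slc8a3 was followed by Prmt3 and Fam216a (r = 0.863 and 0.829), Atp2b4 by Lsamp and Rpl19l4 (0.827 and 0.797), and Atp2b1 by C8h15orf61 and Crcp (0.818 and 0.808). Atp2b2, by J03754Complete_seq_at and not by the probe set that passed, was followed by Wrap73 (r = 0.838, rho = 0.504) and Mdh2 (r = 0.809, rho = 0.7). Without VTA 8 and VTA 2 their r was 0.698 and 0.517. Atp2b3 had the highest value, with Ptprr at r = 0.925 and rho = 0.639, and Ormdl3 at r = 0.820 and rho = 0.379, but r fell to 0.492 and 0.330 without VTA 5 and VTA 4, so these rest on those arrays.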

How the data were processed

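Intensities of 15 arrays were used as deposited; by their values the authors had scaled each array to a 2% trimmed mean of 150.2, and the software behind the signals is not given in the sources used here. Genes were named by the platform table, and for the 7 members RefSeq's rat table (GRCr8) gave the same symbols. After 59 control probe sets were set aside, log2(intensity + 16) was taken and of the other 8740 probe sets the dimmest 40%, by their mean on that scale, were left out. The regions were compared with limma 3.58.1 in R 4.3.3 on all arrays, without covariates, and checked on simulated data. Pairs of probe sets and of genes were compared by exact permutation of within-array differences. The members and lists were chosen with earlier results of these data known. Named were all member probe sets, list genes past the threshold, the 2 smallest p in each of 4 list groups, marker genes beside a result, and the 2 genes most like each member. Deviations of arrays of the same number had weak positive correlations (from 0.0439 to 0.254 over 7 numbers), which does not settle whether they are pairs. The main tests did not take numbers as pairs. Pairing is among the alternatives, where the calls of probe set pairs and gene pairs were lost. For arrays, their number limits precision. Alternatives are given in the closing section.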

Additional observations from a re-analysis of the deposited data

Results flagged for a closer look

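The bright Atp2b3 probe set, J05087_at, had 1 array far from the rest in each region. SNc 5 stood at a signal of 621, with the next highest SNc array at 451, and VTA 5 at 118, with the next lowest VTA array at 321. By Dixon's test on the log2 scale 2 of 28 groups of member values held such an array, and chance alone marks about 1 group in 20.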

How the results depend on the processing

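The single member call, Atp2b2 by rc_AA955388_s_at, was kept in all 25 alternatives. The count over all probe sets, 104, was 59 with an offset of 1, 223 without SNc 5, SNc 7 and SNc 8, and from 56 to 115 on leaving out single arrays. Its share higher in SNc, 42.3%, was 64.4% after median centring. The list count of 3 was 1 with an offset of 1 and from 1 to 3 without single arrays. The 5 disagreeing probe set pairs became 2 of 10 with an offset of 64, 2 of 23 with no filter, 1 of 1 with a filter of 60%, 2 without the 3 SNc arrays, 2 without VTA 5 and VTA 8, and from 2 to 5 without single arrays. The 6 gene pairs became 0 without the 3 SNc arrays and from 5 to 8 without single arrays. With the replicate number as a block (pairing within 7 numbers), 0 probe set pairs and 0 gene pairs passed the exact permutation, with 4 and 9 at an unadjusted p under 0.05; the 6 gene pairs were all at 0.0156, the smallest p that 128 assignments allow, for an adjusted p of 0.0547. In limma that block changed no member call and gave 99 calls in all; of the list it kept Calb1 and Pvalb, lost Atp2a2 and called Atp2a3. SNc 7 has no VTA partner and adds nothing there, own partners correlated best for 3 of 7 numbers, and the arrays share only a number. Signs turned for rc_AI103671_at of Atp2b1 (0.0297 by quantile normalization, 0.0314 by median centring, and -0.182 to 0.0335 without single arrays), U04934_s_at of Slc8a1 (0.0164, 0.0146, and -0.175 to 0.0116) and S67769_s_at of Slc8a1 (-0.15 without the 3 SNc arrays, -0.0049 without VTA 5 and VTA 8). The cause was not tested. Leaving out arrays in groups was chosen after seeing the data.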
